A study of Mus musculus with 18 samples.

Results

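The bone morphogenetic protein (BMP) genes examined here were the 10 genes named Bmp4, Bmp7, Bmp2, Bmpr1a, Id1, Id2, Id3, Id4, Smad6 and Bambi, chosen by gene name from the 55469 genes used. They were followed in mouse pluripotent cells kept either by doxycycline (DOX)-induced OSKM, the reprogramming factors Oct4, Sox2, Klf4 and c-Myc, or by 2iL, and in the fibroblasts of origin. BMP ligands are secreted proteins that bind pairs of type I and type II receptors. The activated type I receptor phosphorylates SMAD1, SMAD5 and SMAD9, which enter the nucleus with SMAD4 and switch on target genes. The ID genes are the best known of these targets in ESCs, and their proteins bind E proteins and keep them from activating differentiation genes. SMAD6 and BAMBI act as brakes on the pathway. Serum is a source of BMP for mouse ESCs. This BMP holds back differentiation through the ID proteins, and BMP with LIF can take the place of serum.

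RNA-Seq was performed on 18 libraries in 9 conditions of 2 libraries each. ESCs were from 1 Tet-On-OSKM/Oct4-GFP line of (C57BL/6 x 129S4/SvJae)F1 and (CBA/CaJ X C57BL/6J)F2 stock, which carries the M2rtTA transactivator at Rosa26, a single polycistronic OSKM transgene at Col1a1, and GFP under the distal Oct4 promoter. The line was derived and further cultured in 2iL on mitomycin C-treated mouse embryonic fibroblast (MEF) feeders, and cells to be reprogrammed were also seeded on feeders. The study's methods do not say whether feeder cells were removed before RNA was extracted. OSKM-ESCs had been switched from 2iL (N2B27 medium with the MEK inhibitor PD0325901, the GSK3 inhibitor CHIR99021 and LIF) to N2B27 with DOX and without inhibitors or LIF. 2iL-ESCs of the same line stayed in 2iL, so the transgene was present in both arms and DOX in the OSKM arm alone. Both were collected at days 18, 25 and 38 after the switch. The 2 libraries of a medium and day are called the first and second culture here, after the numbers in their titles. The titles do not say whether they were grown apart or whether the same cultures were followed across days. OSKM-iPSCs (clones 1 and 3, passages 7 and 6) were reprogrammed from Tet-On-OSKM MEF cells of (C57BL/6 x 129S4/SvJae)F1 stock in N2B27 with DOX and kept in it. 2iL-iPSCs (clones 3 and 6, passages 2 and 3) were reprogrammed in 2iL with DOX, and DOX was withdrawn after the clones were picked. For the 2iL-iPSCs the study's methods give 2iL as routine medium whereas the sample labels give N2B27 with DOX, so the medium of these clones is stated in conflicting ways. MEF cells were Tet-On-OSKM fibroblasts at passage 4 in serum-containing medium without DOX. Medium, DOX and transgene expression changed together in every OSKM group and cannot be told apart, and passage also differed between the iPSC groups.

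Between 11303 and 12095 genes per library had a value over 1 in FPKM, the number of fragments scaled by transcript length and library size. The ratio of coverage to FPKM, a measure that grows with sequencing depth, had library medians of 2.99 to 3.62, and read totals are not known from the values. All 10 pluripotency markers were over an FPKM of 1 in every ESC and iPSC library, and their summed FPKM was at most 0.466 in MEF cells. The summed FPKM of 10 fibroblast markers was 1204 and 1018 in MEF cells, 22.7 to 34.5 in OSKM-ESCs, 4.24 to 6.44 in 2iL-ESCs, 82.2 in OSKM-iPSC clone 1, 8.82 in clone 3 and 3.00 to 4.56 in 2iL-iPSCs. OSKM-iPSC clone 1 therefore stood apart from clone 3 in fibroblast RNA. In bulk RNA, fewer cells of a type and less RNA per cell cannot be told apart, nor can feeder cells and cells of the line. OSKM-ESCs of day 38 stood apart from those of other days by T (brachyury), a primitive streak gene, with an FPKM of 194 and 198 at day 38, 34.3 and 48.9 at day 18, 13.8 and 13.3 at day 25, and 1.18 to 6.35 in 2iL-ESCs.

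RefSeq promoters (GRCm38.p6, 250 bases before to 50 after the start) were matched for 6 of the 10 genes: Bmp4, Bmpr1a, Id2, Id3, Id4 and Smad6. Those of Id2, which had the largest difference between media, and of Bmp4, the ligand that was lower where Id2 was higher, are shown, each up to the first annotated exon. Capitals mark GGCGCC and GGAGCC, GC-rich sites that SMAD1 and SMAD5 can bind, and GTCT, the SMAD box, each searched on both strands. Both stretches are written 5′ to 3′ on the minus strand.
Id2, chr12:25096254-25096342, inside the annotated gene: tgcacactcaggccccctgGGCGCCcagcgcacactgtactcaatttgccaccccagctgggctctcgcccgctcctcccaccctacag
Bmp4, chr14:46390670-46390919, just upstream of the annotated gene: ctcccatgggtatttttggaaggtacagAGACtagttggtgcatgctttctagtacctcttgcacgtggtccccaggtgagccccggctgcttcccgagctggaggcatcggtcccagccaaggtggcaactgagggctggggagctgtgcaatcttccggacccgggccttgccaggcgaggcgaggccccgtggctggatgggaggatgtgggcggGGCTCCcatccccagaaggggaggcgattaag
Over the whole promoter windows, GGCGCC was found in the promoters of Id2, Id4 and Bmpr1a and in 11.9% of all 32851 promoters of this length. GGAGCC was found in those of Id2, Id3, Id4, Smad6 and Bmp4 and in 30.8% of all, and GTCT in those of all but Id4 and in 88.0% of all. These letters describe the sequence and were not tested for binding.

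**Figure D1:**
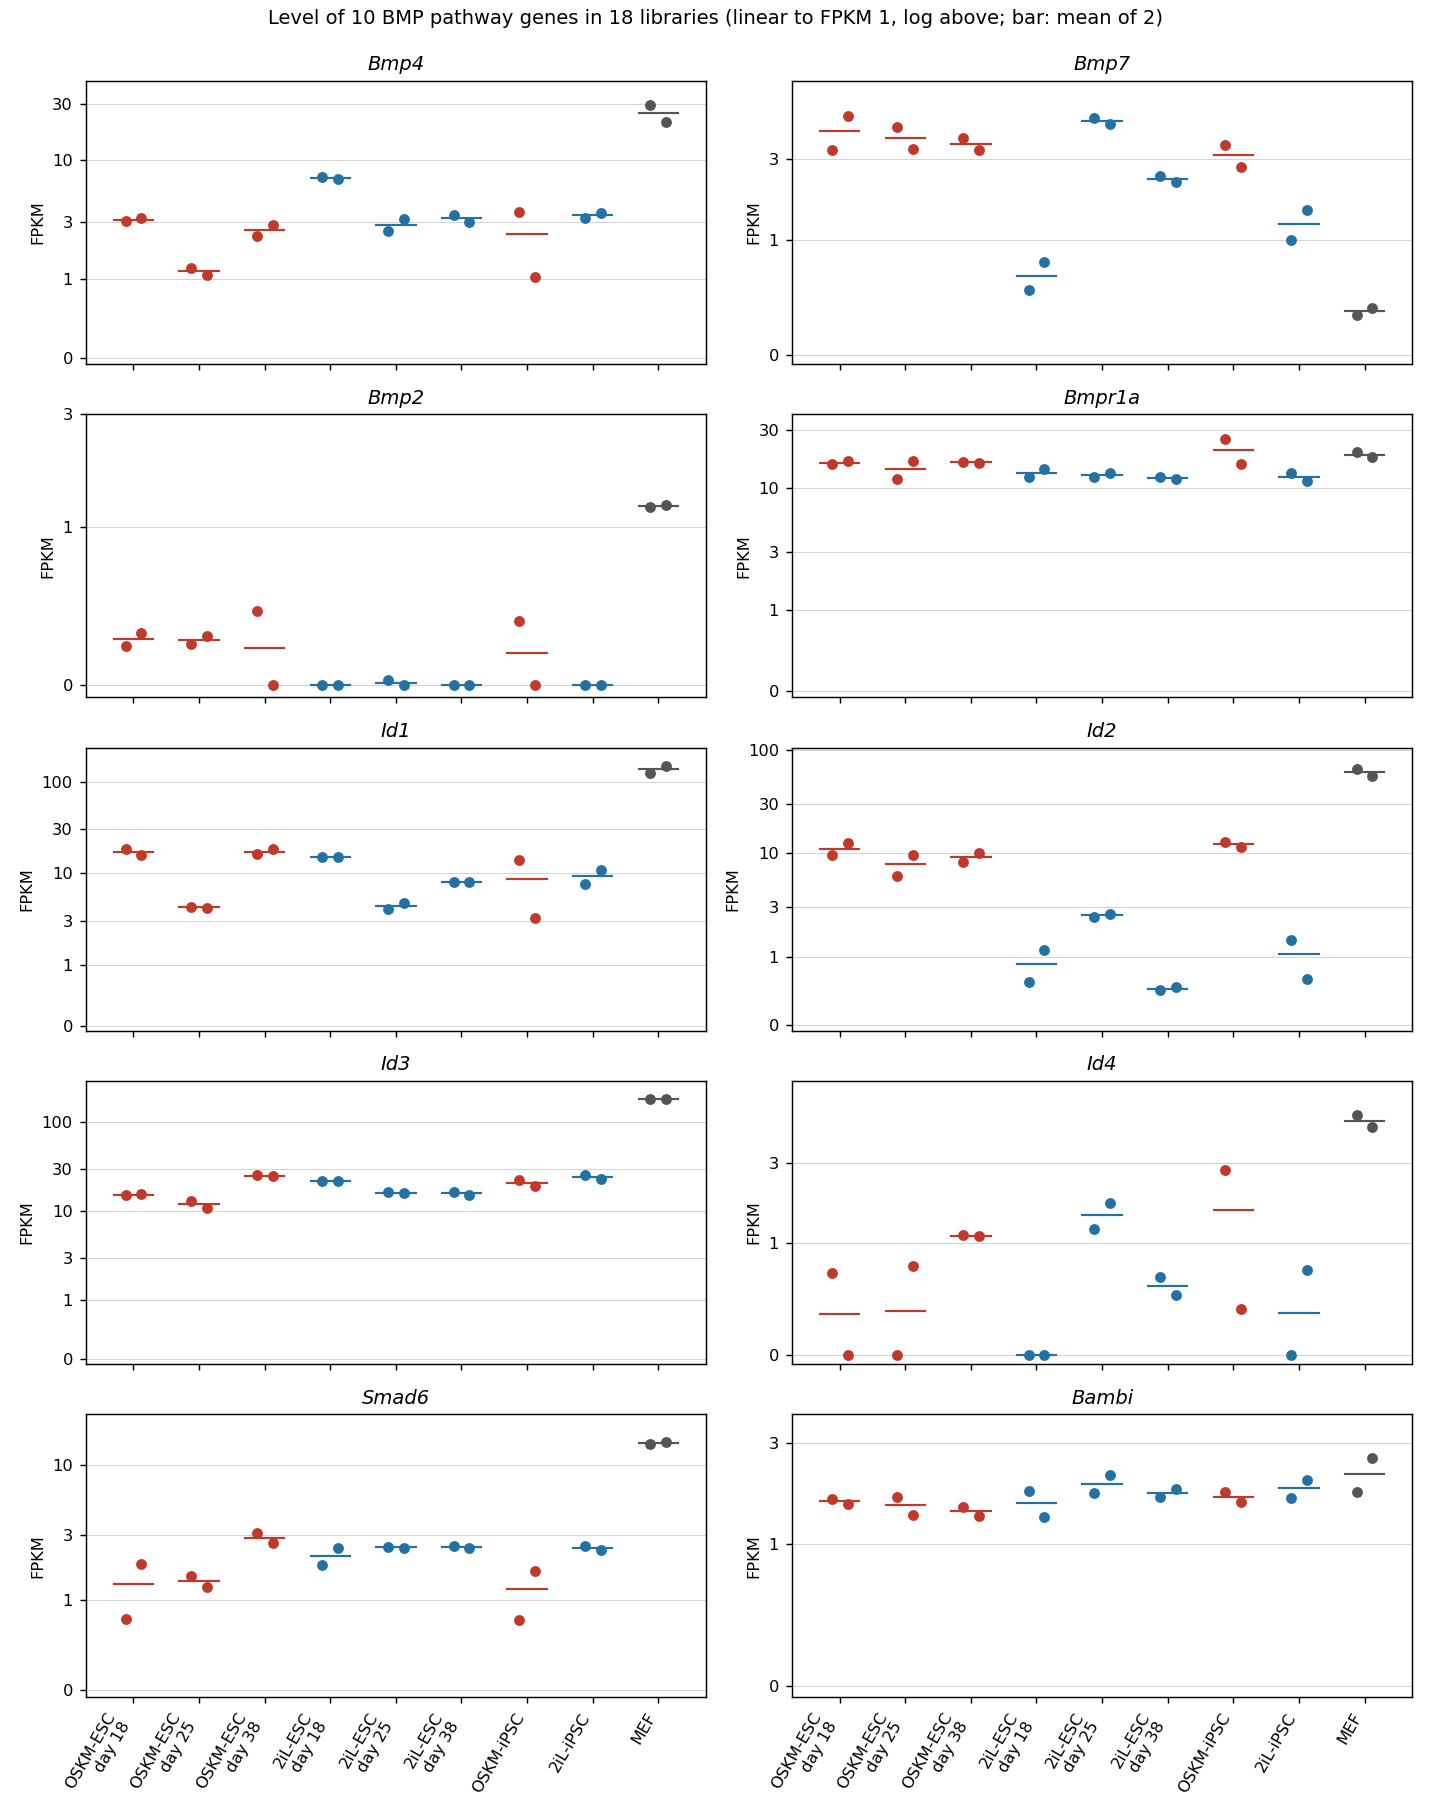
FPKM (y axis, linear to 1 and logarithmic above) of each of the 10 genes in the 9 conditions (x axis), with 1 point per library and a bar at the mean of 2; red is OSKM, blue 2iL and grey MEF. Id2 lies at 6.01 to 12.99 in the 8 OSKM libraries and at 0.516 to 2.61 in the 8 2iL libraries.

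To find which of these genes differed between media, OSKM-ESCs were compared with 2iL-ESCs over the 3 days (6 libraries against 6) with limma on log2(FPKM + 1), with day as a covariate and Benjamini-Hochberg adjustment over all genes tested. All 12 libraries came from 1 line at successive days, and the tests took them as independent, so p-values do not extend to other lines. A gene was called at an adjusted p below 0.05, and changes are on the log2(FPKM + 1) scale, which understates the change of genes with low values. Id2 was higher and Bmp4 was lower in OSKM-ESCs, and Bmpr1a and Id1 were higher by less, with a call for Id1 that was lost in 7 of 10 alternative settings. Of the 10 genes, 9 were tested, since Bmp2 stayed under an FPKM of 1 in all 12 libraries, and 4 were called, 3 higher and 1 lower. Among all genes tested in this comparison 53.8% were called, 29.5% higher and 24.4% lower, so that the share of members called was not above that background. Their median log2 change was -0.03, beside 0.03 over all genes tested. Only 1 of the 10 members, Id2, had OSKM-ESC and 2iL-ESC libraries that did not overlap, as did 26.7% of all genes tested.

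Bmp4 (chromosome 14, 46383520 to 46390669, minus strand, GRCm38), the main BMP ligand studied in ESCs, was lower in OSKM-ESCs. Its FPKM in OSKM-ESCs was 3.04 and 3.23 at day 18, 1.22 and 1.08 at day 25, and 2.28 and 2.82 at day 38. In 2iL-ESCs it was 7.26 and 6.87, 2.53 and 3.18, and 3.44 and 3.00. On each day both OSKM-ESC cultures were below both 2iL-ESC cultures, while over all days the groups overlapped, since day 25 was low in both media. The log2 change over 3 days was -0.68 (SE 0.12, adjusted p = 0.00055, limma), and the exact permutation test of 6 against 6, without day, gave p = 0.039. By day the change was -0.96 at day 18 and -0.84 at day 25 (adjusted p = 0.0013 and 0.0074), against -0.25 at day 38 (adjusted p = 0.13). Without the second 2iL-ESC culture of day 25, the change at day 25 was -0.72 with an adjusted p of 0.056. An antisense gene, Gm15222, overlaps Bmp4, was listed at 0.018 to 0.86, and cannot be told apart from it because the library kit does not mark strand.

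Bmp7, a ligand that signals through the same SMADs, differed between media in a way that changed with the day. In OSKM-ESCs its FPKM was 3.35 and 5.31 at day 18, 4.56 and 3.39 at day 25, and 3.97 and 3.35 at day 38. The 2iL-ESC values were 0.567 and 0.809, 5.20 and 4.77, and 2.38 and 2.21. The 2iL-ESC values of day 18 lay below all OSKM-ESC values and those of day 25 above all but 1 of them. The log2 change was 1.64 at day 18, -0.28 at day 25 and 0.50 at day 38, with an adjusted p of 0.0013, 0.19 and 0.012. Over 3 days it was 0.62 (SE 0.25, adjusted p = 0.057) and was not called, but without the second OSKM-ESC culture, the first 2iL-ESC culture or the second 2iL-ESC culture of day 25 it was called, at an adjusted p of 0.021, 0.031 and 0.041. The call at day 38 was lost without the first OSKM-ESC, the first 2iL-ESC or the second 2iL-ESC culture of that day (adjusted p of 0.068, 0.058 and 0.077).

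Bmp2, the third ligand, was near the bottom of the range. Its FPKM was 0.25 to 0.47 in 5 OSKM-ESC libraries and listed at 0 in the second culture of day 38, whereas it was listed at 0 in 5 of the 6 2iL-ESC libraries and at 0.028 in the other. It did not pass the filter on low values in the main fits of ESCs or iPSCs, and it passed in both MEF comparisons. It also passed in the fit of all 9 conditions, which holds the MEF libraries. The exact permutation test on the ESC libraries gave p = 0.015 for a mean difference of 0.33 on the log2(FPKM + 1) scale.

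Bmpr1a, the type I receptor through which BMP2 and BMP4 signal, was the most even member apart from Bambi. In OSKM-ESCs its FPKM was 15.9 and 16.7 at day 18, 11.9 and 16.9 at day 25, and 16.5 and 16.2 at day 38. In 2iL-ESCs it was 12.4 and 14.4, 12.5 and 13.3, and 12.4 and 11.9. The first OSKM-ESC library of day 25 was below every 2iL-ESC library, and the other 5 were above every one. The log2 change over 3 days was 0.26 (SE 0.09, adjusted p = 0.024), with an exact permutation p of 0.017, and by day it was called at day 38 alone (0.40, adjusted p = 0.0032). Leaving out 6 of the 12 libraries in turn took the adjusted p over 3 days to between 0.053 and 0.060, namely the second OSKM-ESC culture of day 25, both of day 38, the first 2iL-ESC culture of day 18 and both of day 38. The data of days 18 and 25 alone gave 0.19 (adjusted p = 0.23). At day 25 the change was 0.12 (adjusted p = 0.58), and it was 0.36 (adjusted p = 0.040) without the first OSKM-ESC culture of that day and -0.11 (adjusted p = 0.33) without the second.

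Smad6, the inhibitory SMAD that is itself a BMP target, had an FPKM of 0.784 and 1.83 at day 18, 1.496 and 1.25 at day 25, and 3.14 and 2.64 at day 38 in OSKM-ESCs. The corresponding 2iL-ESC values were 1.82 and 2.40, 2.47 and 2.42, and 2.4998 and 2.40. OSKM-ESCs of day 25 lay below every 2iL-ESC library and those of day 38 above every one, while at day 18 the groups overlapped. The log2 change over 3 days was -0.28 (SE 0.15, adjusted p = 0.13). It was -0.54 at day 25 (adjusted p = 0.022), a call that was lost without either 2iL-ESC culture of that day (adjusted p = 0.12 and 0.11), and 0.17 at day 38 (adjusted p = 0.24). Without the second OSKM-ESC culture of day 18, the change at day 18 was -0.79 with an adjusted p of 0.049. Bambi, a receptor-like protein with no kinase domain that blocks TGF-β and BMP receptors, stayed between 1.34 and 2.11 in the 12 ESC libraries and differed by -0.12 (95% CI -0.32 to 0.08, adjusted p = 0.28).

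Id2 (chromosome 12, 25093799 to 25097140, minus strand), an ID gene also expressed in early trophoblast and mesoderm, had the largest difference of the members. In OSKM-ESCs its FPKM was 9.61 and 12.7 at day 18, 6.01 and 9.76 at day 25, and 8.33 and 10.2 at day 38. In 2iL-ESCs it was 0.632 and 1.16, 2.44 and 2.61, and 0.516 and 0.553. The lowest OSKM-ESC library stood above the highest 2iL-ESC library. The means were 9.42 and 1.32, and the log2 change was 2.24 (SE 0.23, 95% CI 1.74 to 2.74, adjusted p = 6.84e-06), with an exact permutation p of 0.0022, the smallest that the splits of 12 libraries can give. The change was called on each day, with 2.68 at day 18, 1.30 at day 25 and 2.73 at day 38, with an adjusted p of 0.00014, 0.0065 and 5.16e-05. It was smaller at day 25, when 2iL-ESCs had their highest values, and there it had an adjusted p of 0.0503 without the first 2iL-ESC culture. Markers of other cell types also differed between the media: the summed FPKM of 5 trophoblast markers was 2.38 to 27.6 in OSKM-ESCs and 0.767 to 2.07 in 2iL-ESCs, and that of 6 primitive endoderm markers was 2.56 to 8.37 and 0.525 to 2.09. Of the trophoblast markers 3 to 5 were under an FPKM of 1 in every ESC library, and Elf5 was at most 0.169. Of the 6 primitive endoderm markers, 3 to 5 were under an FPKM of 1 in OSKM-ESCs and all 6 in 2iL-ESCs. Primitive streak and mesoderm markers summed to 16.7 to 208 in OSKM-ESCs, mostly through T, and to 6.59 to 9.62 in 2iL-ESCs. Of these 5 markers, 1 to 3 were under an FPKM of 1 in OSKM-ESCs and 2 to 3 in 2iL-ESCs. Neural markers went the other way with overlap, at 38.9 to 50.2 and 47.8 to 69.5. The part of these markers in the difference of Id2 was not tested.

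Id1 (chromosome 2, 152736251 to 152737410, plus strand), the ID gene most used as a readout of BMP signalling, followed the day of collection more than the medium. In OSKM-ESCs its FPKM was 18.2 and 15.9 at day 18, 4.26 and 4.17 at day 25, and 16.1 and 18.4 at day 38. The 2iL-ESC values were 15.1 and 14.9, 4.04 and 4.78, and 7.91 and 7.99. At day 25 the media overlapped at the lowest values of both series, and at day 38 both OSKM-ESC cultures were above both 2iL-ESC cultures. The log2 change was 0.17 at day 18, -0.05 at day 25 and 1.02 at day 38, with an adjusted p of 0.28, 0.77 and 0.00034. The exact permutation test over 3 days left out day, so its spread includes that between days, and gave p = 0.41. Over 3 days with day as a covariate, the log2 change was 0.38 (SE 0.15, adjusted p = 0.0499, limma), at the edge of the threshold. It was not called without the first OSKM-ESC culture of day 18, either OSKM-ESC culture of day 38, either 2iL-ESC culture of day 18 or day 38, or the first 2iL-ESC culture of day 25 (adjusted p of 0.057 to 0.12), and the data of days 18 and 25 alone gave 0.06 (adjusted p = 0.66).

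Id3 (chromosome 4, 136143497 to 136145755, plus strand) changed direction between days. Its FPKM in OSKM-ESCs was 15.1 and 15.4 at day 18, 13.1 and 10.7 at day 25, and 25.4 and 24.9 at day 38. In 2iL-ESCs it was 21.7 and 21.6, 16.2 and 15.9, and 16.6 and 15.3. OSKM-ESCs were thus below 2iL-ESCs at days 18 and 25 and above them at day 38. The log2 change was -0.48 (adjusted p = 0.012), -0.41 (adjusted p = 0.041) and 0.62 (adjusted p = 0.00078), and over 3 days -0.09 (SE 0.16, adjusted p = 0.67). Both earlier days in 1 fit gave -0.44 (adjusted p = 0.0042). The call at day 18 was lost without either 2iL-ESC culture of that day (adjusted p = 0.088 and 0.083), and so was that at day 25 (adjusted p = 0.23 and 0.21). The call at day 25 was also lost under median-ratio scaling (adjusted p = 0.079), quantile normalization (adjusted p = 0.11) and limma without trend (adjusted p = 0.052).

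Id4, which is best known from the nervous system, was low in all ESC libraries. It was listed at 0 in 2 OSKM-ESC libraries and reached 1.12 in the others, and in 2iL-ESCs it was listed at 0 in both cultures of day 18, 1.21 and 1.75 at day 25 and 0.699 and 0.542 at day 38. OSKM-ESCs of day 38, at 1.12 and 1.11, were above 2iL-ESCs of that day (0.39, adjusted p = 0.043), and the call was lost without either OSKM-ESC culture or without the second 2iL-ESC culture of day 38 (adjusted p of 0.083, 0.080 and 0.11). At day 25 the change was -0.88 (adjusted p = 0.066), and without the second OSKM-ESC culture of that day it was -1.30 (adjusted p = 0.017). At day 18 Id4 was not tested, as it stayed under an FPKM of 1 in all 4 libraries. Over 3 days it differed by -0.03 (95% CI -0.55 to 0.49, adjusted p = 0.92).

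**Figure D2:**
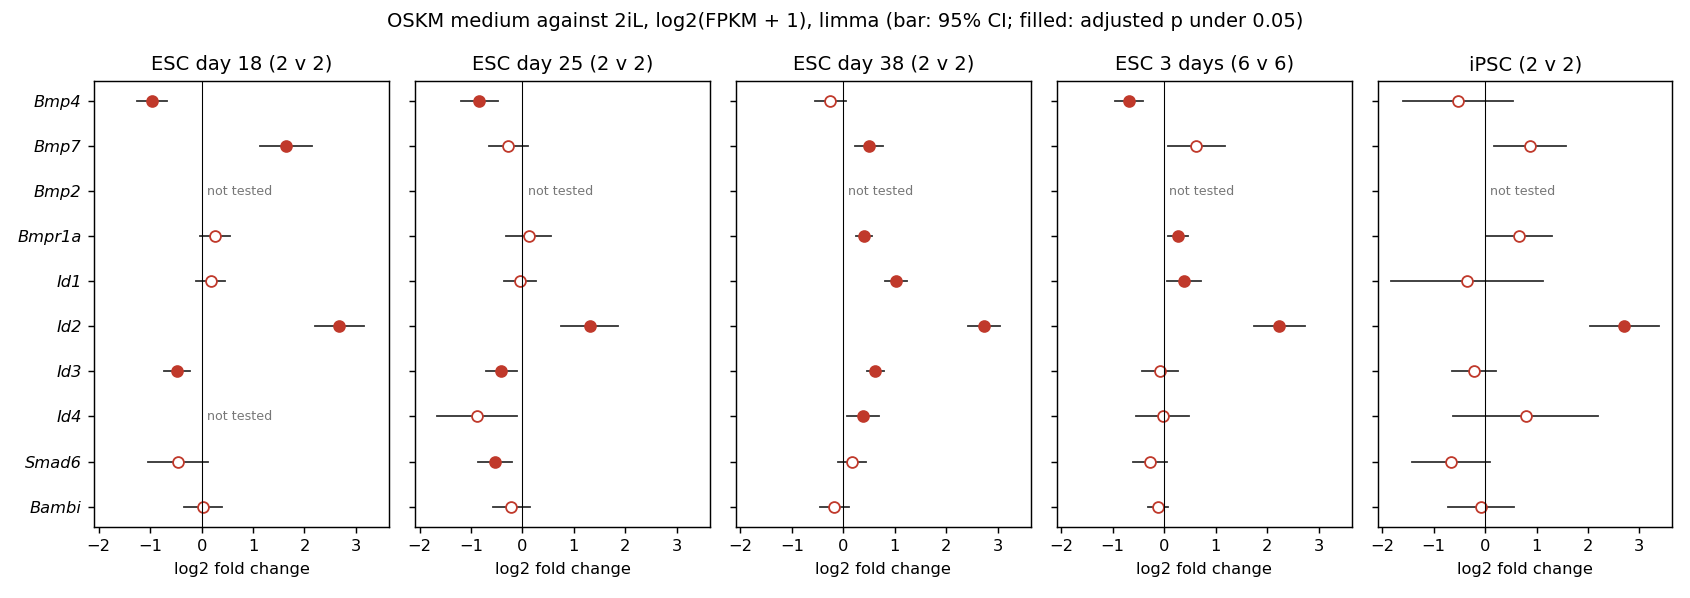
Log2 change of FPKM + 1 (x axis) of each of the 10 genes (y axis) between OSKM and 2iL cells in 5 comparisons, with 95% confidence intervals as bars and filled points for an adjusted p below 0.05. Id2 is filled in all 5 panels, and Id3 is at -0.48 and -0.41 at days 18 and 25 and at 0.62 at day 38.

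By day, 4 of 8 members tested were called at day 18 (43.4% of all genes tested), of which Bmp7 and Id2 were higher and Bmp4 and Id3 lower. At day 25, 4 of 9 were called (46.0% of all genes tested), with Id2 higher and Bmp4, Id3 and Smad6 lower. At day 38, 6 of 9 were called (59.8% of all genes tested), all of them higher: Bmp7, Bmpr1a, Id1, Id2, Id3 and Id4. In either direction together, the share of members called was near the background on each day, and no member was lower with a call at day 38. Over all genes, 3285 of 12774 tested were higher and 2261 lower at day 18, and 2711 of 13098 higher and 3319 lower at day 25. At day 38, 4551 of 13142 were higher and 3314 lower. OSKM-ESCs of day 38 were also the libraries with the highest T and with Cdx2, a trophoblast and posterior mesoderm gene, at 26.3 and 24.5 against at most 1.31 in every other ESC library. Cdx2 was called over 3 days (1.62, adjusted p = 0.036) but not with days 18 and 25 alone (0.23, adjusted p = 0.37) or without any 1 library of day 38 (adjusted p of 0.087 to 0.088). The part of these other cell markers in the values of day 38 was not tested.

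Whether the difference between media itself changed with day was tested by the interaction of medium and day. It was called for 5 of 9 members, beside 37.9% of all genes tested. The 3 log2 changes by day spanned 1.10 for Id3 (adjusted p = 0.00034), 1.07 for Id1 (adjusted p = 0.00099), 1.91 for Bmp7 (adjusted p = 0.0013), 1.43 for Id2 (adjusted p = 0.0078) and 0.71 for Bmp4 (adjusted p = 0.018). Id1 and Id3 had their highest change at day 38, Id2 its lowest at day 25, and Bmp7 its highest at day 18. The call for Bmp4 was lost without a filter on low values (adjusted p = 0.069) and in a single fit of all 9 conditions (adjusted p = 0.38), that for Id1 in the single fit (adjusted p = 0.33) and that for Id2 without a filter (adjusted p = 0.082). The call for Bmp4 was lost as well without the second OSKM-ESC or the second 2iL-ESC culture of day 38 (adjusted p = 0.077 and 0.076). The spans of Id4 (1.27, adjusted p = 0.0503), Smad6 (0.71, adjusted p = 0.11), Bmpr1a (0.27, adjusted p = 0.51) and Bambi (0.24, adjusted p = 0.48) were not called. Id4 was called without either OSKM-ESC culture of day 18 (adjusted p = 0.047 and 0.019) or the second of day 25 (adjusted p = 0.012), Smad6 without either OSKM-ESC culture of day 18 (adjusted p = 0.032 and 0.011), and Bmpr1a without the second OSKM-ESC culture of day 25 (adjusted p = 0.038).

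Within a medium, values at the 3 days were compared with limma's F test. In OSKM-ESCs 4 of 9 members differed between days, beside 38.6% of all genes tested: Id1, with a span of 1.80 between the lowest and the highest day (adjusted p = 0.00023), Id3 (1.02, adjusted p = 0.0027), Bmp4 (0.94, adjusted p = 0.0057) and Smad6 (0.79, adjusted p = 0.047). Smad6 lost its call without either culture of day 25 or of day 38 (adjusted p of 0.084 to 0.23), and Bmpr1a was called without the second culture of day 25 (0.44, adjusted p = 0.039). In 2iL-ESCs, whose medium had not been changed, 6 of 9 members differed between days, beside 50.8% of all genes tested. These were Bmp7 (1.83, adjusted p = 0.00048), Id1 (1.57, adjusted p = 0.00034), Id4 (1.30, adjusted p = 0.0034), Id2 (1.198, adjusted p = 0.0041), Bmp4 (1.07, adjusted p = 0.0017) and Id3 (0.42, adjusted p = 0.0049). Bmp4 and Id1 were lowest at day 25 in both media. The labels give no batch for the days, so that time since the switch and the handling of each collection cannot be told apart.

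The iPSC clones ask whether cells reprogrammed in N2B27 with DOX differ from cells reprogrammed in 2iL. Id2 was again higher, with an FPKM of 12.99 and 11.6 in OSKM-iPSC clones 1 and 3 and of 1.46 and 0.679 in 2iL-iPSC clones 3 and 6. The log2 change was 2.71 (SE 0.27, 95% CI 2.04 to 3.38, adjusted p = 0.011), and it was 2.63 (adjusted p = 0.033) without clone 1, which held more fibroblast RNA. Without either 2iL-iPSC clone it was 2.98 and 2.43 with an adjusted p of 0.32, in fits in which no gene was called. Id2 was 1 of 9 members called, beside 7.96% of all genes tested. The calls over all genes split into 683 higher and 404 lower, and into 422 and 440 under quantile normalization, which moved the median of all genes from 0.09 to -0.02. The trophoblast markers summed to 14.3 and 13.8 in OSKM-iPSCs and 2.25 and 1.27 in 2iL-iPSCs, mostly through Krt7 at 9.40 and 10.7. This keratin was also 5.46 and 4.41 in MEF cells, while Cdx2 was at most 0.853 in the 4 clones. The sums of primitive endoderm markers overlapped, at 8.32 and 1.23 against 1.64 and 1.27. So did those of streak and mesoderm markers (5.82 and 2.24 against 5.79 and 5.29) and neural markers (52.5 and 25.1 against 49.3 and 68.4). The part of these markers in the difference of Id2 was not tested.

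Bmp4 and Id1 separated the OSKM-iPSC clones from each other. Bmp4 was 3.68 in clone 1 and 1.04 in clone 3, beside 3.25 and 3.61 in 2iL-iPSCs, and Id1 was 13.9 and 3.22, beside 7.60 and 10.9. For both genes clone 1 was higher than clone 3, and both 2iL-iPSC values lay between these clones. The log2 change was -0.52 for Bmp4 (adjusted p = 0.45) and -0.35 for Id1 (adjusted p = 0.72). Without clone 3 both changes turned to 0.08 and 0.56 (adjusted p = 0.80 and 0.24).

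Bmp7 was 3.62 and 2.66 in OSKM-iPSCs and 1.003 and 1.504 in 2iL-iPSCs (0.88, adjusted p = 0.11). Smad6 was 0.778 and 1.62 against 2.48 and 2.35 (-0.66, adjusted p = 0.21). Bmpr1a was 25.3 and 15.7 against 13.3 and 11.4 (0.66, adjusted p = 0.17), and Id3 was 22.5 and 19.2 against 25.7 and 22.9, with clones 1 and 6 nearly level (-0.22, adjusted p = 0.43). Id4 was 2.74 in clone 1 and 0.410 in clone 3, and in 2iL-iPSCs it was listed at 0 in clone 3 and at 0.764 in clone 6 (0.79, adjusted p = 0.39). Bmp2 was 0.404 in clone 1 and listed at 0 in the other 3 clones, and Bambi was 1.58 to 2.01 in all 4 (-0.08, 95% CI -0.72 to 0.55). The difference between the iPSC change and the ESC change was tested in a fit of all 9 conditions and was called for none of the 10 members (adjusted p of 0.25 to 0.91), while 2446 of 15567 genes tested were called. For Id2 that difference was 0.47 (95% CI -0.11 to 1.05), and for Id1 it was -0.73 (95% CI -1.73 to 0.26), and neither interval excludes 0.

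MEF cells had the highest mean FPKM of 8 of the 10 members. Id3 was 182 and 181, Id1 125 and 146, Id2 66.3 and 56.9, Bmp4 29.0 and 21.1, Smad6 14.2 and 14.6, and Id4 5.82 and 4.92. Bmp2 was 1.21 and 1.24 and Bambi 1.75 and 2.54, the latter overlapping the pluripotent libraries. Bmp7 was lowest in MEF cells, at 0.353 and 0.411, and Bmpr1a, at 19.7 and 18.1, lay within the range of the OSKM-iPSC clones.

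In OSKM-iPSCs against MEF cells, all 10 members were tested and 7 were called, beside 60.3% of all genes tested. Bmp7 was higher (1.57, adjusted p = 0.0048), a direction taken by 34.0% of all genes tested. Id1 (-4.10, adjusted p = 0.0079), Id3 (-3.07, adjusted p = 0.0010), Bmp4 (-3.06, adjusted p = 0.0072), Smad6 (-2.84, adjusted p = 0.0020), Id2 (-2.23, adjusted p = 0.0014) and Bmp2 (-0.91, adjusted p = 0.033) were lower, a direction taken by 26.4%. Without either MEF library no gene at all was called in this comparison, with an adjusted p of 0.062 to 0.16 for these 7. Median-ratio scaling moved the median of all genes from 0.19 to 0.02 in this comparison and from 0.09 to -0.02 in the next, which did not turn any called member. Id4 (-1.47, adjusted p = 0.066) was called without OSKM-iPSC clone 1 or clone 3 (adjusted p = 0.011 and 0.041) and under median-ratio scaling (adjusted p = 0.048), and Bmpr1a (0.08, adjusted p = 0.81) was higher with a call without clone 3 (0.40, adjusted p = 0.049).

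In 2iL-iPSCs against the same MEF libraries 9 of 10 members were called, beside 78.0% of all genes tested. Bmp7 was higher (0.70, adjusted p = 0.014), as were 40.6% of all genes tested. The other 8 were lower, as were 37.4% of all genes tested, and Id2 had the largest change (-4.94, adjusted p = 4.76e-05), followed by Id1 (-3.75), Id3 (-2.85), Bmp4 (-2.54), Id4 (-2.26), Smad6 (-2.17), Bmp2 (-1.15) and Bmpr1a (-0.58), with adjusted p-values of 2.87e-05 to 0.0076. Bmp7, Bmpr1a and Id4 lost their calls without either MEF library (adjusted p of 0.061 to 0.11). Both comparisons share the MEF libraries, so their values stand side by side and their likeness is no separate result. Bambi was called in neither (-0.23 and -0.14, adjusted p = 0.37 and 0.49).

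**Figure D3:**
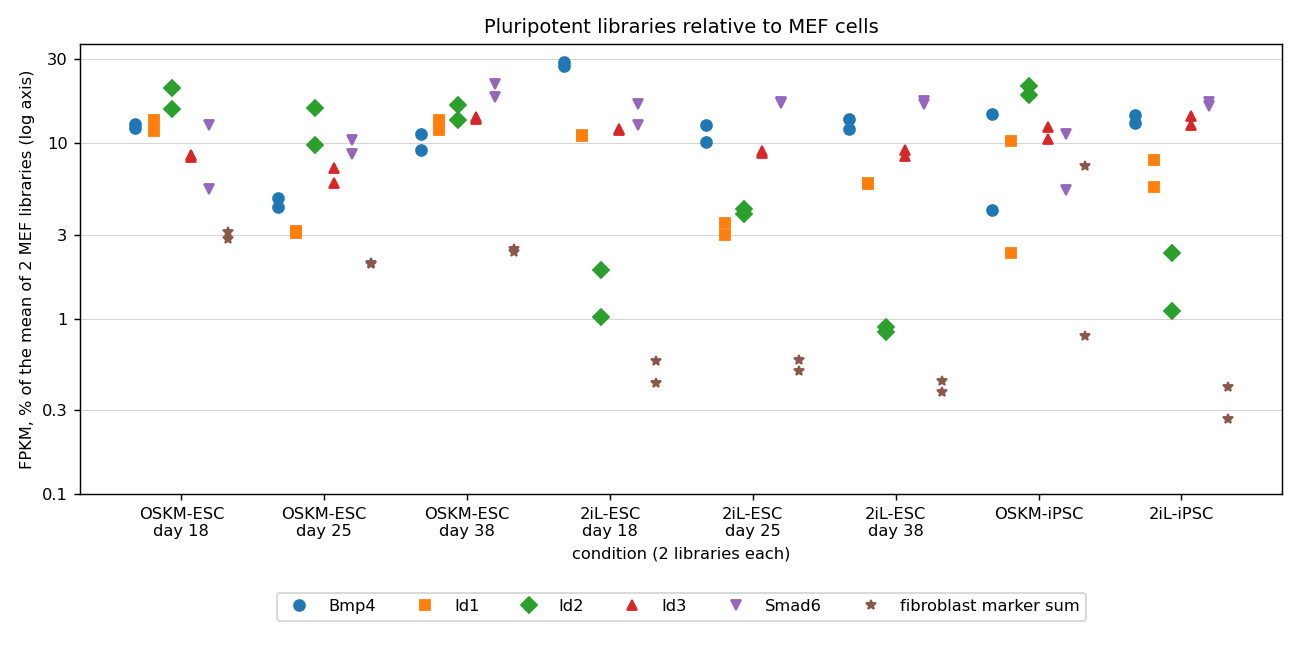
FPKM of Bmp4, Id1, Id2, Id3, Smad6 and of the summed fibroblast markers as percent of the mean of the 2 MEF libraries (y axis, logarithmic), with 1 point per library in the 8 pluripotent conditions (x axis). Id2 stands at 9.76 to 20.5% in OSKM-ESCs. The sum of the fibroblast markers stands at 2.04 to 3.10%, with single markers at higher and lower shares.

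Fibroblast markers were higher in OSKM-ESCs than in 2iL-ESCs, and the members were therefore set beside them as a percentage of the MEF mean. The marker sum was 2.04 to 3.10% of that in MEF cells in OSKM-ESCs and 0.382 to 0.580% in 2iL-ESCs, and 3 to 5 of the 10 markers were under an FPKM of 1 in OSKM-ESCs and 7 to 9 in 2iL-ESCs. Id2 was 9.76 to 20.5% of its MEF level in OSKM-ESCs and 0.838 to 4.23% in 2iL-ESCs. The largest part of the marker sum was Col1a2 (mean FPKM of 478 in MEF cells), and single markers stood at higher or lower shares. Mmp2 was 5.30 to 9.89 in OSKM-ESCs, 0.712 to 1.79 in 2iL-ESCs and 62.8 to 68.4 in MEF cells. Prrx1 was 0.238 to 0.759, at most 0.0418, and 94.3 to 101. The part of fibroblast RNA in the difference of Id2 was not tested. In OSKM-iPSC clone 3 the markers stood at 0.794%, with 7 of 10 under an FPKM of 1, and Id2 at 18.8%, while in clone 1 they stood at 7.40% and Id2 at 21.1%. In clone 1 Id1 was 10.2% of its MEF level and Bmp4 14.7%, against 2.38% and 4.14% in clone 3, and the part of the fibroblast RNA in that difference was not tested. At day 25 Id1 was 2.98 to 3.52% of its MEF level in both media, while the markers were 2.04 and 2.07% in OSKM-ESCs and 0.503 and 0.580% in 2iL-ESCs.

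Other genes of the pathway were taken from a list of 60 names, of which 59 were in the files and 39 were tested over the 3 days. Of these, 26 were higher and 3 lower in OSKM-ESCs, where 29.5% of all genes tested were higher and 24.4% lower, and their median log2 change was 0.44 beside 0.03. With days 18 and 25 alone, 17 of the listed genes were called in either direction, against 29 over 3 days. This fit used fewer libraries, and the share of all genes called was 42%, against 53.8% over 3 days. By class, 8 of 10 secreted antagonists tested were higher and none lower, 5 of 7 receptors and co-receptors were higher and 1 lower, 6 of 10 SMADs and their regulators were higher and 1 lower, and 4 of 6 other targets and 2 of 3 other ligands were higher. The pattern was weaker at day 25, when 11 of 32 pathway genes tested were higher and 6 lower. Of all 13098 genes tested then, 2711 were higher and 3319 lower. The median of the pathway genes at day 25 was 0.14, beside -0.05 over all genes tested. By class, 2 of 7 antagonists were higher, and of 7 receptors and co-receptors 1 was higher and 1 lower. At day 18, 18 of 33 were higher and 1 lower, beside 3285 and 2261 of all 12774. At day 38, 24 of 34 were higher and 2 lower, beside 4551 and 3314 of all 13142. Against MEF cells, 27 of 47 pathway genes tested were lower and 8 higher in OSKM-iPSCs, beside 26.4% and 34.0% of all genes tested. In 2iL-iPSCs, 33 of 45 were lower and 4 higher, beside 37.4% and 40.6%. In each of these comparisons 9 of 11 antagonists were lower. The part of fibroblast RNA in the pathway changes of OSKM-ESCs was not tested.

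Fst, which encodes follistatin, an extracellular trap for activins and some BMPs, had the largest change in the list on the log2(FPKM + 1) scale, while with a pseudocount of 0.1 that of Bmp8b was larger (4.23 against 3.72). Its FPKM in OSKM-ESCs was 11.04 and 16.2 at day 18, 7.60 and 10.1 at day 25, and 40.2 and 41.7 at day 38, against 0.877 to 1.62 in 2iL-ESCs (3.04, adjusted p = 5.02e-06). It was 64.0 and 72.2 in MEF cells, and OSKM-iPSCs, at 3.03 and 1.72, overlapped 2iL-iPSCs, at 2.44 and 0.938. Bmp8b, a ligand of the list, was 1.40 to 4.24 in OSKM-ESCs and at most 0.181 in 2iL-ESCs (1.74, adjusted p = 2.27e-06). In the iPSC clones it was 6.55 and 1.97 against 0.485 and 0.0794 (1.90, adjusted p = 0.076), and it was called without OSKM-iPSC clone 3 (2.58, adjusted p = 0.031).

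Zfp423, a zinc-finger partner of the BMP SMADs, was 5.84 to 20.0 in OSKM-ESCs and 1.41 to 4.28 in 2iL-ESCs (1.86, adjusted p = 0.00022). Of the SMADs that carry the signal, Smad5 was higher (0.92, adjusted p = 2.02e-06), with 7.07 to 12.5 against 3.37 to 5.12, and so was the common partner Smad4 (0.44, adjusted p = 0.00065). Smad1 differed by -0.18 (adjusted p = 0.16) and Smad9 stayed under an FPKM of 1. The inhibitor Smad7 was lower (-0.50, adjusted p = 0.015), although not with days 18 and 25 alone (-0.36, adjusted p = 0.18). Eng, which encodes the co-receptor endoglin, was the only listed pathway gene lower by more than 1 (-1.41, adjusted p = 9.77e-07), with 1.48 to 7.12 in OSKM-ESCs and 7.02 to 18.4 in 2iL-ESCs.

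The E proteins, to which ID proteins bind, did not move together. Tcf12 was higher (1.34, adjusted p = 3.3e-06), with 22.9 to 32.4 in OSKM-ESCs and 7.76 to 12.9 in 2iL-ESCs, Tcf4 was lower (-0.36, adjusted p = 0.013), and Tcf3 differed by 0.21 (adjusted p = 0.086). Tcf3 was called without the first OSKM-ESC culture of day 18 (0.29, adjusted p = 0.0044). In the iPSC clones 37 pathway genes were tested and 4 were higher and none lower, near the 7.96% called over all genes tested, with a median of 0.47 beside 0.09. They were Dusp9, a BMP-induced ERK phosphatase (1.85, adjusted p = 0.015), Tcf12 (1.45, adjusted p = 0.030), the SMAD repressor Skil (1.35, adjusted p = 0.018) and the antagonist Nbl1 (1.43, adjusted p = 0.049). Dusp9 was 75.3 and 107 in OSKM-iPSCs against 24.1 and 24.2 in 2iL-iPSCs. All 4 lost their calls without either 2iL-iPSC clone (adjusted p of 0.32 to 0.34), and Tcf12 and Nbl1 also without OSKM-iPSC clone 1 (adjusted p = 0.065 and 0.063).

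**Figure D4:**
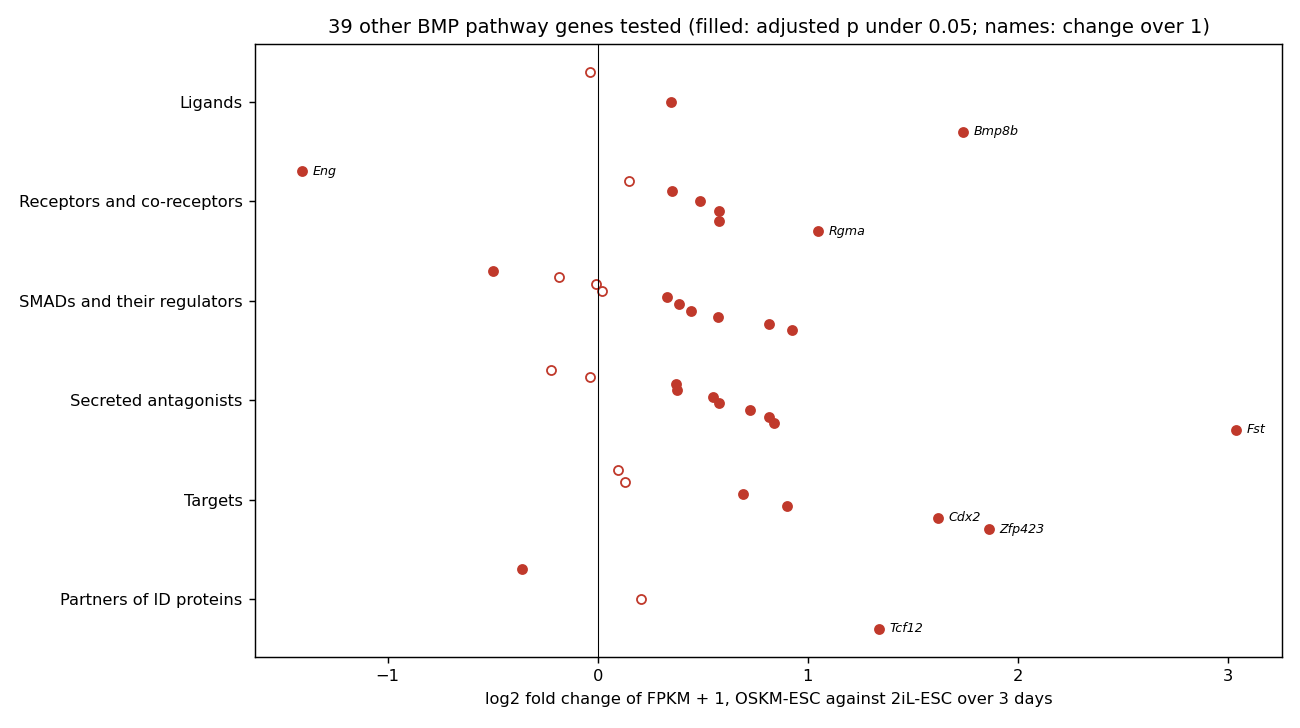
Log2 change of FPKM + 1 between OSKM-ESCs and 2iL-ESCs over 3 days (x axis) for the 39 other BMP pathway genes tested, by class (y axis), filled for an adjusted p below 0.05 and named where the change exceeds 1. Fst is farthest to the right at 3.04 and Eng farthest to the left at -1.41.

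Across the 16 pluripotent libraries the ID genes did not share a profile. Pearson's r of log2(FPKM + 1) was 0.07 between Id1 and Id2, 0.52 between Id1 and Id3 and -0.15 between Id2 and Id3, given as a description over libraries that share media, days and a cell line. Bmp4 had r = 0.64 with Id1, 0.48 with Id3 and -0.56 with Id2. Among the 11741 genes above an FPKM of 1 in 8 or more of these libraries, those most like Id2 were Patj (r = 0.98), Dcaf12l1 (0.98) and Micall1 (0.98). Those most like Id1 were Sar1a (0.90), Ric8b (0.88) and Pus10 (0.86), those most like Id3 were Efna4 (0.84), Lrrc42 (0.82) and Zfp760 (0.81), and those most like Bmp4 were Gtf2b (0.94), Ddah1 (0.93) and Xaf1 (0.90).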

How the data were processed

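RNA-Seq values were analysed as deposited in 1 file per library. Per the labels, poly-A RNA was selected and libraries were made with a NEBNext Ultra kit, which does not mark strand. Reads were aligned to GRCm38/mm10 with STAR and only unique reads were kept, and the authors computed FPKM, TPM and coverage with StringTie. The deposited FPKM values were the main measure. The deposited TPM values served as an alternative, rescaled from FPKM in 2 libraries whose TPM column had failed, and the coverage deposited by the authors gave relative depth. Read counts are not known from these values. Of 55471 genes listed, 2 with a failed value were left out, and 11 identifiers listed more than once were summed. Groups followed the GEO titles.

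limma 3.58.1 in R 4.3.3 (lmFit and trended eBayes) took log2(FPKM + 1) as input for genes that exceeded an FPKM of 1 in any library of the comparison, with Benjamini-Hochberg adjustment over all genes and a threshold of 0.05, since Cuffdiff, which the authors used, needs aligned reads. With 2 libraries a group, p-values rest on variance shared across genes and measure the spread between these cultures or clones, and an exact permutation test of 2 against 2 cannot go below 0.333. Exact 2-sided permutation tests, which leave out day, were used for 6 against 6. The fits were tested on simulated data. All 10 members are named. Of the pathway list, the text names the 4 genes with the largest called changes in each direction whose libraries do not overlap (none was lower), together with the SMADs, receptors and E proteins by class. Eng, Cdx2, Dusp9, Skil, Nbl1 and T were named after their values were seen. Members and lists were chosen with earlier results of these data known. Alternatives were pseudocount, filter, scaling, TPM, trend, a single fit, the study's cutoff (fold over 2, unadjusted p below 0.05), each library left out, a replicate block and, added after seeing the data, days 18 and 25 alone.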

Additional observations from a re-analysis of the deposited data

Results flagged for a closer look

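The difference between OSKM-ESCs and 2iL-ESCs depended on the day for 5 members by the interaction of medium and day (limma, 2 cultures per medium and day). The log2 changes at the 3 days spanned 1.10 for Id3 (adjusted p = 0.00034), which was lower at days 18 and 25 and higher at day 38. They spanned 1.91 for Bmp7 (adjusted p = 0.0013), 1.43 for Id2 (adjusted p = 0.0078), 1.07 for Id1 (adjusted p = 0.00099) and 0.71 for Bmp4 (adjusted p = 0.018). The call was lost for Bmp4 without a filter on low values (adjusted p = 0.069), in a single fit of all 9 conditions (adjusted p = 0.38) and with a replicate block (adjusted p = 0.055), for Id1 in the single fit (adjusted p = 0.33) and for Id2 without a filter (adjusted p = 0.082). No single library was tested as an outlier, since every condition has 2 libraries.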

How the results depend on the processing

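Across alternatives, the log2 changes of single genes kept direction and side of the threshold in 633 of 735 values with 1 library left out, where 70 lost a call, 19 gained one and 13 turned direction, and in 94 of 111 under a single fit of all 9 conditions. The cause of these changes was not tested. Members called over 3 days (4) were 1 under the study's cutoff and 2 to 5 without 1 library. Those in iPSCs (1) were 3 without a filter, 4 under the single fit, 2 under the study's cutoff and 0 to 1 without 1 library. Those in OSKM-iPSCs against MEF (7) were 0 to 9 without 1 library. Interaction calls (5) were 3 without a filter and 3 under the single fit. Calls at day 18 (4) were 7 without a filter, those at day 25 (4) were 1 to 5 without 1 library, and those at day 38 (6) were 2 under the single fit and 2 under the study's cutoff. Pathway calls over 3 days (29) were 14 under the study's cutoff and 17 with days 18 and 25 alone, an alternative chosen after seeing the data. In that alternative 42% of all genes tested were called, against 53.8% over 3 days. Pathway calls in iPSCs (4) were 11 without a filter, 24 under the single fit, 10 under the study's cutoff and 0 to 10 without 1 library.

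Direction turned for Bmpr1a in OSKM-iPSCs against MEF under TPM (-0.030), quantile normalization (-0.036) and median-ratio scaling (-0.11), and leaving out 1 library gave -0.25 to 0.40. At day 25 Bmpr1a ranged from -0.11 to 0.36 and Id1 from -0.15 to 0.051 without 1 library, and Id1 was 0.062 under quantile normalization. In iPSCs the range was -1.12 to 0.082 for Bmp4, -1.26 to 0.56 for Id1 and -0.18 to 0.0077 for Bambi. Id4 over 3 days ranged from -0.18 to 0.18. Smad6 at day 38 was -0.033 under quantile normalization. Bambi in 2iL-iPSCs against MEF was 0.037 under quantile normalization and -0.33 to 0.040 without 1 library. At day 18 it was -0.020 under median-ratio scaling, -0.13 under quantile normalization and -0.10 to 0.15 without 1 library. None of the turned values was called.

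Same-numbered cultures deviated together with r of 0.15, 0.11 and 0.03 at days 18, 25 and 38, so the numbers were not taken to pair the samples. With a replicate block 3 members were called over 3 days, with Id1 at an adjusted p of 0.11, and 6 in the interaction, where Bmp4 lost its call (adjusted p = 0.055) and Id4 and Smad6 gained theirs (adjusted p = 0.027 and 0.044). Depth could not be set from the files, and members under an FPKM of 1, Bmp2 and Id4 above all, are the least certain.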
